A study of Mus musculus with 32 samples.

Results

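Myelin is the lipid-rich sheath that mature oligodendrocytes wrap around axons in the central nervous system, where it speeds conduction and feeds the axon. It makes up much of the white matter and is sparser in cortical grey matter, so a cortical dissection carries myelin transcripts from both its own layers and the underlying white matter. A small set of proteins builds the sheath. Some glue its layers together, some seal or face its surfaces, and some shape the membrane processes that oligodendrocytes extend. The levels of 9 genes that encode such proteins, Mbp, Mobp, Mag, Mog, Cnp, Mal, Cldn11, Ermn and Opalin, were followed here across frontal cortex libraries. They were taken by symbol from the 33000 genes of the count table, and each symbol matched a single gene.

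The libraries compared wild-type (WT) C57BL/6 mice with GFAP-IL6 mice that are homozygous for an interleukin 6 transgene, all at 3 months of age, and the labels name no treatment. The transgene is driven by the promoter of Gfap, an astrocyte gene, so the model places the cytokine under control of an astrocyte promoter and not of an oligodendrocyte one. Total RNA of frontal cortex entered reverse transcription at 50, 10, 1 or 0.5 ng, with 4 replicates per genotype and input and 32 libraries in all, to ask how little RNA the 3'Pool-seq method can work with. This method counts reads at the 3' ends of polyadenylated transcripts, so levels are given as CPM, the counts per 1000000 counts of a library, with no length correction, and are compared between libraries but not between genes.

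Library totals lay between 1071895 and 7538356 counts with 50 ng of RNA, between 1064514 and 9840302 with 10 ng, between 261378 and 2800270 with 1 ng and between 295022 and 2722389 with 0.5 ng. All 9 genes had counts in all 32 libraries, with at least 33 counts at 10 ng and 36 at 50 ng but as few as 6 at 1 and 0.5 ng. The markers of cortical neurons were present throughout, with Slc17a7, the vesicular glutamate transporter of cortical excitatory neurons, detected in every library. The Schwann cell gene Pmp2 was at 0 in all 32 libraries, Prx was at 0 in 29 and Cldn19 in 28. Another Schwann cell marker, Pmp22, which other cells also express, measured 9.50 to 50.4 CPM. Of the striatal markers, Drd2 was at 0 in all 32 libraries. In bulk tissue, fewer oligodendrocytes, less RNA per oligodendrocyte and a smaller piece of white matter in the dissection cannot be told apart.

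Positions are on GRCm38, from a later GENCODE release than the one used for counting. Mobp (ENSMUSG00000032517.13), which encodes a basic protein of compact myelin, lies at chr9:120149707-120181484. Mag (ENSMUSG00000036634.13), an adhesion receptor on the inner face of the sheath next to the axon, lies at chr7:30899176-30914873. Mog (ENSMUSG00000076439.10), a protein of the outermost sheath surface, lies at chr17:37010743-37023398. Cnp (ENSMUSG00000006782.14), a cyclic nucleotide phosphodiesterase of noncompact myelin, lies at chr11:100574904-100591729. Mal (ENSMUSG00000027375.12), a proteolipid of myelin lipid rafts, lies at chr2:127633226-127656695. Cldn11 (ENSMUSG00000037625.7), the claudin that forms the tight junctions within central myelin, lies at chr3:31149920-31164324. Ermn (ENSMUSG00000026830.9), an actin-binding cytoskeletal protein of late oligodendrocytes, lies at chr2:58045113-58052864. Opalin (ENSMUSG00000050121.8), a transmembrane glycoprotein of oligodendrocyte processes, lies at chr19:41061710-41077113. Mobp, Cnp and Cldn11 are on the plus strand and the others named here on the minus strand. Exons of 3 of the 9 overlapped an exon of another gene, which was Dnajc7 on the opposite strand for Cnp, Galnt5 on the opposite strand for Ermn and the noncoding Gm38642 on the same strand for Mobp, and their counts are uncertain to that extent.

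Oligodendrocyte genes are known targets of SOX10 and MYRF, which drive the differentiation of the lineage. RefSeq promoter sequences on GRCm38.p6 matched 8 of the 9 genes, all but Mbp, and the stretch from 250 to 51 bases before each start site was searched for ACAAAG, a core SOX motif, and for CTGGNAC, a MYRF motif, on both strands. The SOX letters were present in 4 of the 8 genes (Mobp, Mag, Cnp and Opalin). Counted by window, they were in 5 of the 10 of these genes and in 13.6% of all 32851 windows of this length. The MYRF letters were present in 3 of the 8 (Mag, Mog and Cnp), in 4 of the 10 windows and in 13.2% of all windows. Mag supplied 3 of the 10 windows, and 2 of these overlap, so the same SOX match and a MYRF match were counted in both. The counts by window are therefore not counts of separate sites. Mal, Cldn11 and Ermn held neither, and no match overlapped another. The windows below are shown for 3 genes that varied together across libraries and for the 2 that kept apart in some of them, Cldn11 and Ermn, as described further on. Mal, with neither motif, and Mog, without the SOX letters, are not shown but also varied with the others. Their mean Pearson r with the other 8 genes was 0.59 and 0.64 at 50 ng and 0.69 and 0.72 at 10 ng. A link between motifs and shared variation was not tested. Matches to either motif are in capitals, and all windows read 5′ to 3′ on the strand of the gene.
Mobp (chr9:120149492-120149691, plus strand): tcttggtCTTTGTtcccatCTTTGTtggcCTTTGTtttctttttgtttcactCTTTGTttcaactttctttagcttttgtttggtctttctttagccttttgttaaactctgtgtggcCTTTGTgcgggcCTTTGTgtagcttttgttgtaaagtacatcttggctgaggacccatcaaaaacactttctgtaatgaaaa
Cnp (chr11:100574689-100574888, plus strand): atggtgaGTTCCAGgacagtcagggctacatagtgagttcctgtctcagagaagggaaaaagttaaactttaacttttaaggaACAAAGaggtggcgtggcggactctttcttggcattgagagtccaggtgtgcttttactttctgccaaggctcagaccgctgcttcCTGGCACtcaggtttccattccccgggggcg
Opalin (chr19:41077164-41077363, minus strand): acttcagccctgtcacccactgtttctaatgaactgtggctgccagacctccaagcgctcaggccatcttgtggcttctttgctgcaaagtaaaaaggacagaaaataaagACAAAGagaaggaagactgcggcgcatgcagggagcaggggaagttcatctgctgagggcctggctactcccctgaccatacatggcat
Cldn11 (chr3:31149670-31149869, plus strand): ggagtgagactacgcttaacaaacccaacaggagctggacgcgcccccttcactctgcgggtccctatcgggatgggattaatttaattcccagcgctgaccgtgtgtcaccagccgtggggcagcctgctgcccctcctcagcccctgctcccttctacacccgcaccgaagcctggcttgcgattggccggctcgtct
Ermn (chr2:58052915-58053114, minus strand): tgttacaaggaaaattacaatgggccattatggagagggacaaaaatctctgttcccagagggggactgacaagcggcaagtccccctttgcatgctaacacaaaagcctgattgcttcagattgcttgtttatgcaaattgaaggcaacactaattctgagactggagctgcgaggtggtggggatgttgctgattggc
The Mobp window held 6 matches to the SOX letters in a T-rich stretch, and its G and C content was 37.5%, while that of Cldn11 was 62% with no match. A match describes the letters alone, and binding was not measured.

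Mbp (ENSMUSG00000041607.14, on chromosome 18) encodes the basic protein that holds the cytoplasmic faces of the sheath together, and it had the largest counts of the 9. At 50 ng it measured 3562, 4778, 5128 and 3555 CPM in WT replicates 1 to 4, and 4361, 3304, 5229 and 1597 CPM in GFAP-IL6 replicates 1 to 4. At 10 ng it measured 3327, 4717, 4818 and 3472 CPM in WT, and 4055, 2633, 5105 and 2243 CPM in GFAP-IL6. WT replicates 2 and 3 and GFAP-IL6 replicate 3 were high at both inputs, GFAP-IL6 replicate 4 was the lowest, and the genotypes overlapped. The WT mean was 4255 ± 818 CPM (SD, n = 4) at 50 ng and the GFAP-IL6 mean 3623 ± 1563 CPM. The log2 fold change of GFAP-IL6 against WT was -0.27 with a standard error (SE) of 0.24 (edgeR quasi-likelihood test, Benjamini-Hochberg adjusted p = 0.841), and -0.26 at 10 ng, -0.16 at 1 ng and -0.16 at 0.5 ng. Without GFAP-IL6 replicate 4 the Mbp value at 50 ng was -0.01 (SE 0.12), and it was -0.09 at 10 ng.

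Mobp, the other basic protein of compact myelin, showed no common shift. At 50 ng its levels were 46.2, 69.2, 86.0 and 60.6 CPM in WT and 67.5, 67.2, 91.99 and 50.002 CPM in GFAP-IL6. The ranges overlapped almost completely, with replicate 3 the highest of each genotype. For Mobp the log2 fold change was 0.05 (SE 0.21) at 50 ng and -0.13 (SE 0.18) at 10 ng.

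Mog, Mag and Opalin encode membrane surface proteins. Mog measured 47.3, 59.4, 77.9 and 45.6 CPM in WT and 51.3, 36.4, 80.5 and 21.1 CPM in GFAP-IL6 at 50 ng. At 10 ng it measured 50.6, 76.6, 109 and 59.6 CPM in WT and 46.0, 31.0, 105 and 40.0 CPM in GFAP-IL6. Replicate 3 was the highest library of both genotypes at both inputs. The log2 fold change of Mog was negative at all 4 inputs (-0.30, -0.40, -0.59 and -0.77 from 50 to 0.5 ng), with adjusted p-values of at least 0.739 by edgeR. Leaving out GFAP-IL6 replicate 3 at 10 ng brought it to -0.88, with an adjusted p of 0.0504 by edgeR, which still missed the threshold, and leaving out GFAP-IL6 replicate 4 at 50 ng turned its sign, to 0.03. Mag, on the axonal side, measured 34.0, 54.2, 50.4 and 41.1 CPM in WT and 35.3, 33.6, 54.0 and 36.6 CPM in GFAP-IL6 at 50 ng. Its log2 fold change was -0.18 (SE 0.21) at 50 ng and 0.00 (SE 0.21) at 10 ng. Opalin measured 63.9, 83.5, 86.3 and 59.0 CPM in WT and 62.6, 41.0, 79.5 and 27.2 CPM in GFAP-IL6 at 50 ng. At 10 ng the values were 58.2, 82.6, 111 and 57.9 CPM in WT against 83.4, 31.0, 74.8 and 34.9 CPM in GFAP-IL6. GFAP-IL6 replicates 2 and 4 lay below every WT library at both inputs while replicates 1 and 3 lay among them. Opalin had the most negative log2 fold change of the 9 at 50 ng (-0.49, SE 0.25) and at 10 ng (-0.45, SE 0.23), but it was 0.68 (SE 0.40) at 1 ng, so the direction did not hold across inputs. Without GFAP-IL6 replicate 4 Opalin was at -0.19 at 50 ng and -0.24 at 10 ng.

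Cnp, which follows Mbp closely, measured 250, 338, 327 and 263 CPM in WT and 304, 226, 334 and 145 CPM in GFAP-IL6 at 50 ng. GFAP-IL6 replicate 4 was again the lowest, replicate 2 was also below every WT library, and the other two lay among them. The estimate for Cnp was -0.26 (SE 0.21) at 50 ng and -0.03 without that library. Mal measured 152, 270, 252 and 196 CPM in WT and 205, 176, 244 and 208 CPM in GFAP-IL6, and here GFAP-IL6 replicate 4 sat in the middle of its group. For Mal the log2 fold change was -0.09 (SE 0.18) at 50 ng and -0.03 (SE 0.15) at 10 ng. Ermn measured 46.2, 84.2, 59.5 and 52.1 CPM in WT and 75.6, 70.9, 67.1 and 50.4 CPM in GFAP-IL6. Its log2 fold change was positive at all 4 inputs, from 0.09 to 0.34, and smaller than its SE at each.

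Cldn11 differed in the other direction at the larger inputs, without passing the test. It measured 31.0, 42.9, 45.6 and 33.2 CPM in WT and 40.3, 40.1, 50.3 and 80.6 CPM in GFAP-IL6 at 50 ng. At 10 ng it measured 38.0, 47.5, 65.2 and 30.9 CPM in WT and 58.1, 38.5, 64.8 and 78.9 CPM in GFAP-IL6. GFAP-IL6 replicate 4, the lowest library for Mbp, was the highest for Cldn11 at both inputs, and the other libraries of the 2 genotypes overlapped. In Cldn11 the log2 fold change was 0.48 (SE 0.23, unadjusted p = 0.0464) at 50 ng and 0.43 (SE 0.21, unadjusted p = 0.0489) at 10 ng in edgeR's quasi-likelihood test, with Benjamini-Hochberg adjusted p = 0.835 and 0.662. Without GFAP-IL6 replicate 4 it was 0.22 (SE 0.16) and 0.27 (SE 0.22), and with all libraries it was -0.10 at 1 ng and -0.07 at 0.5 ng.

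**Figure D1:**
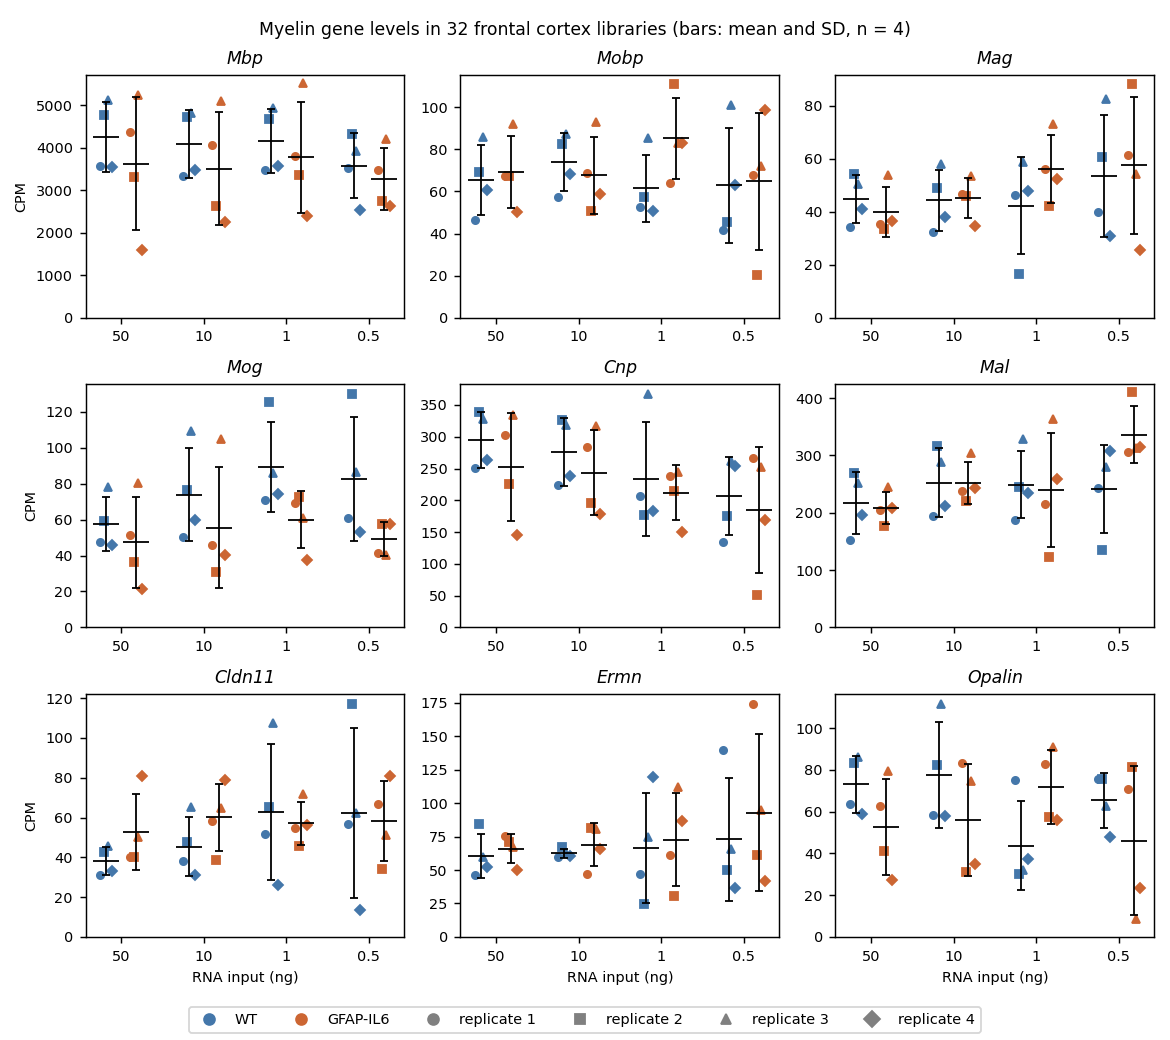
CPM of each gene in the 32 libraries, by RNA input in ng, with the genotype as colour, the replicate number as symbol shape, and bars for the mean and SD of 4 libraries. The genotypes overlapped for all 9 genes at every input, and among the libraries at 50 ng GFAP-IL6 replicate 4 was the lowest for Mbp (1597 CPM) and the highest for Cldn11 (80.6 CPM).

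Across the 9 genes, no difference between genotypes passed the test. A gene was called when its Benjamini-Hochberg adjusted p over all tested genes was under 0.05 and its absolute log2 fold change above 1. By edgeR, 0 of 9 were called at 50 ng, where 0.28% of 11773 tested genes were, 0 of 9 at 10 ng (0.266% of 12043), 0 of 9 at 1 ng (0.0323% of 9276) and 0 of 9 at 0.5 ng (0.0117% of 8571). DESeq2 also called 0 of 9 at every input, beside 44 of 14536, 45 of 15170, 13 of 10070 and 21 of 10078 tested genes from 50 to 0.5 ng. At an unadjusted p under 0.05 the count was 1, 1, 0 and 0 of 9, and the gene was Cldn11 each time, beside 5.63%, 7.48%, 3.59% and 2.87% of all tested genes. At no input did a gene of the 9 have all GFAP-IL6 values above or all below the WT values, which held for 3.33%, 4.1%, 3.07% and 2.81% of tested genes from 50 to 0.5 ng. The median log2 fold change of the 9 was -0.18 at 50 ng, beside 0.00 over all tested genes, and -0.13, -0.04 and -0.07 at the lower inputs. Without GFAP-IL6 replicate 4 the medians of the 9 were -0.01, -0.05, 0.00 and -0.12 from 50 to 0.5 ng. The sign was the same at all 4 inputs for Mbp, Mog and Cnp, which were negative, and for Ermn, which was positive. Without that library the sign of Mog turned at 50 ng and that of Mbp at 1 ng, to 0.03 and 0.00.

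These misses came with intervals of unequal width. At 50 ng the 95% intervals of 8 of the 9 log2 fold changes lay within 1 of 0 in both directions, and at 10 ng all 9 did. At 1 ng this held for 5 and at 0.5 ng for 3 of the 9. For Mbp the interval ran from -0.77 to 0.23 at 50 ng and from -0.50 to 0.18 at 0.5 ng, so it was no wider at the smallest input. For Opalin it widened from -1.004 to 0.02 at 50 ng to -1.97 to 0.84 at 0.5 ng. The change in genotype effect with input was tested as an interaction and called by the adjusted p alone. By edgeR 0 of 9 genes were called for 10, 1 or 0.5 ng against 50 ng, as were 0% of all tested genes in each of the 3 comparisons. The unadjusted p was under 0.05 for 0, 1 and 0 of the 9 and for 174, 471 and 758 of all tested genes. DESeq2 called 0 genes for 10 ng, 3 higher and 5 lower at 1 ng and 85 higher and 80 lower at 0.5 ng, with 0 of the 9 among them. The gene with an unadjusted p under 0.05 was Opalin at 1 ng, with a difference in log2 fold change of 1.16 (SE 0.47).

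**Figure D2:**
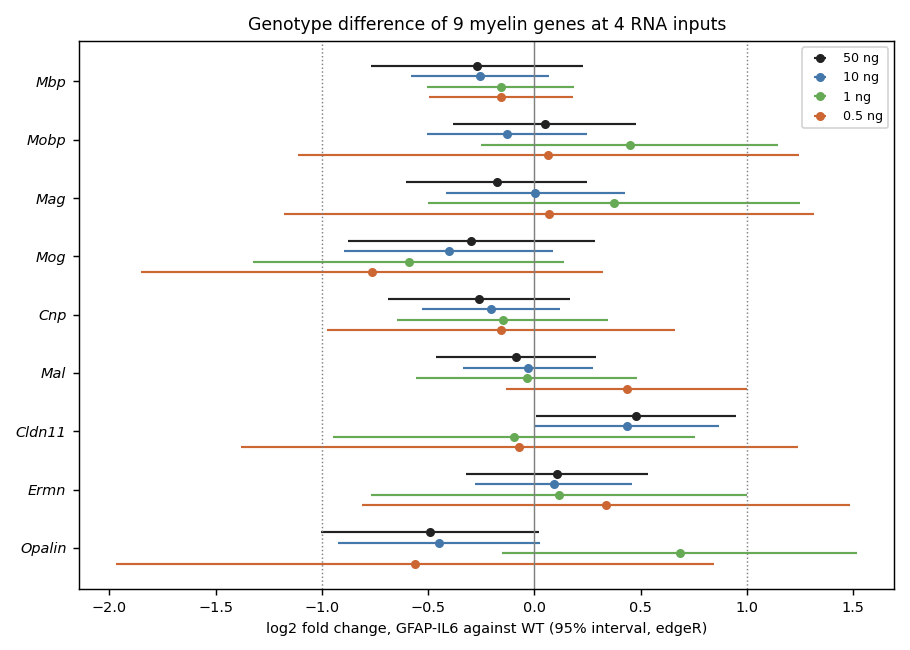
Log2 fold change of GFAP-IL6 against WT for each gene at 50, 10, 1 and 0.5 ng, with points for edgeR's estimate, bars for the 95% interval and dotted lines at 1 and -1. The interval of Mbp was no wider at 0.5 ng than at 50 ng, while that of Opalin widened, and the intervals of Cldn11 at 50 and 10 ng were the only ones that left out 0.

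Levels were compared between inputs over both genotypes, without pairing libraries of the same number. By edgeR 0 of 9 genes were called at 10 ng against 50 ng, where 0% of 12599 tested genes were called and 523 had an unadjusted p under 0.05, and DESeq2 called 1 gene, which was none of the 9. The count by edgeR was 0 of 9 at 1 ng (0.328% of 11290 genes) and 0 of 9 at 0.5 ng (1.5% of 11406). DESeq2 again called 0 of 9, beside 170 of 14228 genes at 1 ng and 595 of 14901 at 0.5 ng. At an unadjusted p under 0.05 the count was 1 of 9 in each comparison, beside 4.15% of all tested genes at 10 ng, 11.9% at 1 ng and 13.8% at 0.5 ng, so that it did not stand above the background at the smaller inputs. That gene was Mal at 10 ng, Mog at 1 ng and Mal again at 0.5 ng. Mal averaged 217 ± 53.8 CPM (SD, n = 4) in WT and 208 ± 27.8 CPM in GFAP-IL6 at 50 ng, and 242 ± 76.1 CPM and 336 ± 49.4 CPM at 0.5 ng. As a description, it was higher at 10 ng than at 50 ng in 8 of 8 libraries of the same genotype and number. It was higher at 1 ng in 6 of 8 and at 0.5 ng in 7 of 8. Against 50 ng, its log2 fold change was 0.27 (SE 0.12) at 10 ng, 0.27 (SE 0.16) at 1 ng and 0.48 (SE 0.17) at 0.5 ng, where the adjusted p was 0.133 by edgeR's quasi-likelihood test, 0.0384 by DESeq2 and 0.0320 by edgeR without WT replicate 2. Cnp had negative values, with -0.05, -0.23 and -0.39 (SE 0.23), and was lower at 0.5 ng in all but 1 of 8 pairs. For Mbp the values were -0.03, 0.07 and -0.14 (SE 0.16), and it was higher than at 50 ng in 1, 4 and 1 of the 8 pairs. The labels do not give these pairs, and the share of all genes with such counts is not given here.

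Summed over the 9 genes, the myelin signal spread widely within each genotype. At 50 ng the sum was 4232, 5780, 6112 and 4305 CPM in WT replicates 1 to 4 and 5203, 3996, 6230 and 2216 CPM in GFAP-IL6 replicates 1 to 4. The group means were 5107 ± 978 CPM and 4411 ± 1725 CPM (SD, n = 4). The highest library exceeded the lowest 1.44 times in WT and 2.81 times in GFAP-IL6. At 10 ng the sums were 4040, 5766, 5919 and 4236 CPM in WT and 4928, 3327, 6198 and 2977 CPM in GFAP-IL6. The same numbers were high and low as at 50 ng. At 1 ng the sums were 4201, 5415, 6069 and 4337 CPM and 4657, 4063, 6623 and 3172 CPM, and at 0.5 ng 4309, 5109, 4936 and 3339 CPM and 4532, 3552, 5080 and 3451 CPM.

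The order of the libraries recurred across inputs. In GFAP-IL6 it was replicate 3, then 1, then 2, then 4 at all 4 inputs, and in WT it was 3, 2, 4 and 1 at 50, 10 and 1 ng and 2, 3, 1 and 4 at 0.5 ng. The neighbours WT 1 and 4 differed little (4232 and 4305 CPM at 50 ng), as did WT 2 and 3. The labels do not say that libraries of the same genotype and number were made from the same RNA. Mbp made up 72.1% to 86.3% of the sum, so the sum followed it closely. Without Mbp, the sum of the other 8 genes was still led by WT replicates 2 and 3 and GFAP-IL6 replicate 3 at 50 and 10 ng, with 985 to 1101 CPM against 619 to 873 CPM in the remaining libraries. The full order did not hold without Mbp, since GFAP-IL6 replicate 2 and not 4 was then the lowest of its group at 10, 1 and 0.5 ng, and replicate 1 led it at 0.5 ng. The spread of GFAP-IL6 libraries was then 1.62 times from lowest to highest at 50 ng, against 2.81 times with Mbp.

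**Figure D3:**
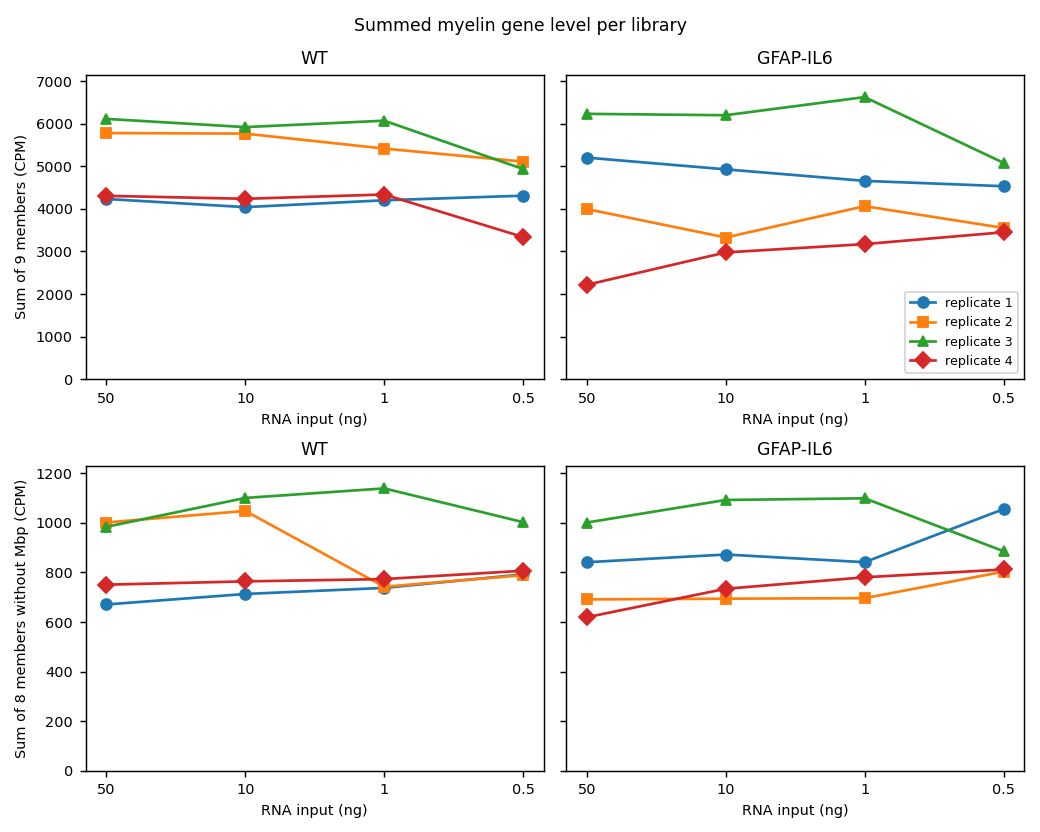
Summed CPM of the 9 genes (top) and of the 8 genes without Mbp (bottom) by RNA input in ng, with a line for each replicate number of WT (left) and GFAP-IL6 (right). Replicate 3 led both genotypes at 50, 10 and 1 ng in the sum of 9, and GFAP-IL6 replicate 4 was the lowest of its group at every input, from 2216 CPM at 50 ng to 3451 CPM at 0.5 ng.

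The 9 genes deviated together from their group means in most libraries at high input. On the log2(CPM + 1) scale, 0 of 9 genes lay above the WT mean in WT replicates 1 and 4 and 9 of 9 in WT replicates 2 and 3, at 50 ng and again at 10 ng. In GFAP-IL6 replicate 3 the count was 8 of 9 at 50 ng and 9 of 9 at 10 ng. The mean deviation of the 9 was -0.31, 0.24, 0.26 and -0.18 in the WT libraries at 50 ng and 0.12, -0.13, 0.43 and -0.42 in the GFAP-IL6 libraries. At 1 and 0.5 ng the counts were mixed in most libraries, between 2 and 8 of 9, and single genes deviated by as much as -1.87, in Opalin. By the mean deviation, WT replicate 3 nevertheless stayed above its group mean at all 4 inputs, by 0.26 to 0.39. GFAP-IL6 replicate 4 stayed below at all 4, by -0.42 to -0.12. GFAP-IL6 replicate 1 was also above at all 4, and WT replicates 1 and 4 and GFAP-IL6 replicate 2 were below at all 4. WT replicate 2 and GFAP-IL6 replicate 3 were above at 3 of the 4.

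Pairs of the 9 genes were correlated over the 8 libraries of an input, after each was centred on its group mean. From the largest to the smallest input, the mean Pearson r over the 36 pairs was 0.54, 0.58, 0.18 and 0.04. Over all pairs of the 8749 genes with a mean of at least 10 CPM at 50 ng it was 0.02, and 0.03, 0.02 and 0.02 at the lower inputs. These points share a library and its depth, and they serve as a description only. At 50 ng the highest r was that of Mbp with Cnp, 0.99, and the lowest that of Mbp with Cldn11, -0.47. Cldn11 averaged -0.10 with the other 8 genes at 50 ng, and 0.84 without GFAP-IL6 replicate 4. Ermn was the least alike at 10 ng, with a mean of 0.03 with and 0.01 without that library. Without GFAP-IL6 replicate 4 all 36 pairs at 50 ng had an r above 0, with a mean of 0.78. The median counting error of a gene in WT and GFAP-IL6 was 7.4% and 7.8% at 50 ng and 6.4% and 8.1% at 10 ng. It was 13.9% and 14.3% at 1 ng, and 12.2% and 13.6% at 0.5 ng. The observed coefficient of variation exceeded the counting error for all 9 genes in 7 of the 8 groups and for 8 genes in WT at 10 ng, the exception being Ermn. The part of the counting error in the lower r was not tested.

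**Figure D4:**
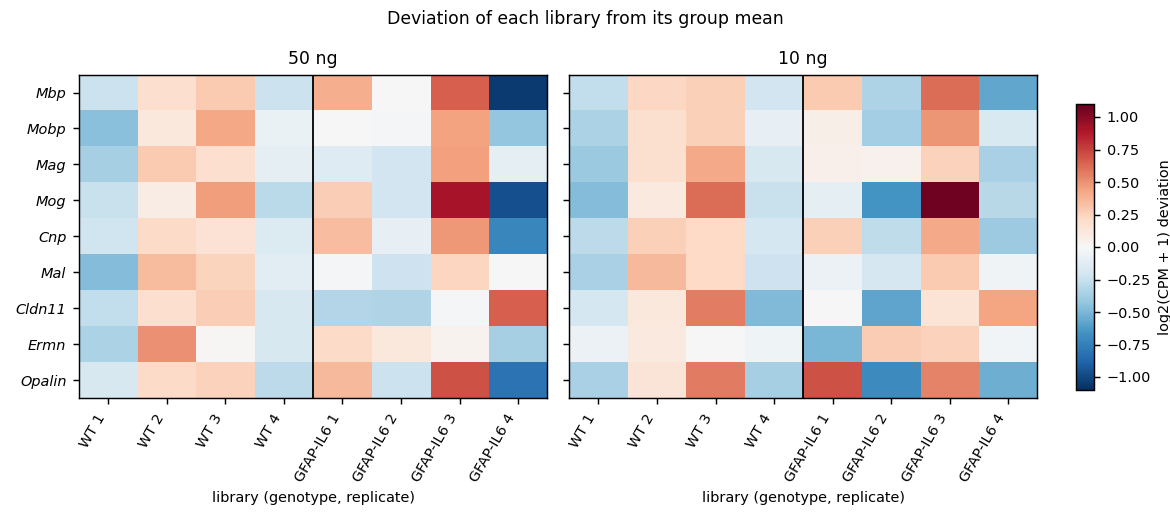
Deviation of log2(CPM + 1) from the mean of the group (genotype and input) for the 9 genes in the 8 libraries at 50 ng (left) and 10 ng (right), red above and blue below the mean. Whole columns share a colour in the WT libraries. In GFAP-IL6 replicate 4 Mbp, Mobp, Mag, Mog, Cnp, Ermn and Opalin lay below and Cldn11 above the mean at both inputs, with Mal close to it.

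GFAP-IL6 replicate 4 stood apart in other ways, described here with genes that were named after their values had been seen. At 50 ng, Mbp deviated from the group mean by -1.05 and Cldn11 by 0.66, with Mal at 0.01. The same library had 748 CPM of Camk2a, a kinase of excitatory neurons, against 172 to 222 CPM in the other 7 libraries. It had 2602 CPM of Slc1a2, the astrocyte glutamate transporter, against 913 to 1202 CPM. Aldoc, another astrocyte marker, went the other way, with 789 CPM against 1385 to 1993 CPM. Nfasc, which anchors myelin beside the nodes, was at 125 CPM against 45.7 to 60.9 CPM. The long noncoding RNA gene Yam1 took 35239 CPM, against at most 7569 CPM in the other libraries at 50 ng, and genes that are neither protein-coding nor mitochondrial took 6.65% of counts against at most 3.87%. At 10 ng Yam1 measured 18004 CPM in GFAP-IL6 replicate 4 and at most 8194 CPM elsewhere, and it was highest in this library at 1 and 0.5 ng as well. Replicate 4 was also the highest WT library for Yam1 at all 4 inputs, and the order of replicates, 4, 2, 1 and 3, was the same in both genotypes throughout. The summed markers of oligodendrocyte progenitors, 9 genes, came to 170 CPM against 91.4 to 127 CPM, those of astrocytes, 6 genes, to 4424 CPM against 3152 to 3786 CPM, those of endothelium, 4 genes, to 100 CPM against 29.3 to 50.4 CPM, and those of cortical neurons, 7 genes, to 6331 CPM against 5875 to 6697 CPM. Slc1a2 alone was 2602 CPM of the astrocyte sum in GFAP-IL6 replicate 4, so that sum does not describe all 6 genes. The part of these levels in the myelin values was not tested.

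The libraries with the highest myelin sums differed from each other in other tissue. WT replicate 3 had 3355 CPM of Ttr, the transthyretin made by choroid plexus, at 50 ng and 3003 CPM at 10 ng, while the other 7 libraries had 52.7 to 335 CPM at 50 ng and 29.7 to 305 CPM at 10 ng. Its summed choroid plexus markers, 5 genes, came to 3390 CPM at 50 ng against at most 340 CPM elsewhere, of which Ttr was nearly all. GFAP-IL6 replicate 3 and WT replicate 2, with myelin sums of 6230 and 5780 CPM, showed no such level, with 142 and 113 CPM. The summed microglial markers, 6 genes, ran from 305 to 345 CPM in WT and 333 to 529 CPM in GFAP-IL6 at 50 ng, and the highest was GFAP-IL6 replicate 3. Their part in the myelin sums was not tested.

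Among the other 8726 genes with a mean of at least 10 CPM at 50 and 10 ng, those most like the mean of the 9 over the 16 libraries, centred on group means, were Plekhb1 (r = 0.93), Tmbim1 (0.93), Gatm (0.92), Prpsap1 (0.92), Ifrd1 (0.92), Cmtm5 (0.91), Gsn (0.90), Trf (0.90), Gdap1l1 (0.90) and Elovl1 (0.89). Trf encodes transferrin, the iron carrier that oligodendrocytes make, Gsn the actin-severing gelsolin, and Elovl1 an elongase of very long chain fatty acids. Trf measured 80.0, 83.5, 127 and 62.5 CPM in WT and 76.8, 67.2, 163 and 64.0 CPM in GFAP-IL6 at 50 ng, with replicate 3 the highest of both genotypes. The least like were Iqgap2 (-0.90), Cep126 (-0.88), Zfp131 (-0.88), B830012L14Rik (-0.86) and Add2 (-0.86). These are the extremes of the ranking, and most were not as extreme in the libraries at 1 and 0.5 ng. There the r of the 10 most alike ran from -0.09 for Ifrd1 to 0.50 for Plekhb1. That of the 5 least alike ran from -0.48 for B830012L14Rik to 0.28 for Iqgap2. Without GFAP-IL6 replicate 4, a choice made after seeing the data, 6 of the 10 most alike genes were again among the first 10. Of the 9 genes themselves, Cldn11 went from 0.31 to 0.91 while Ermn went from 0.43 to 0.30. Each of the 9 is part of the mean it is compared with, which raises its r, so these values cannot be set beside those of other genes.

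The other genes of myelin and oligodendrocytes numbered 46 in 5 lists. By edgeR 0 of the 44 tested were called in either direction at 50 ng and 0 of 44 at 10 ng. At an unadjusted p under 0.05 there were 1 and 3 of the 44, beside 5.63% and 7.48% of all tested genes. At 1 ng and at 0.5 ng 0 of 33 were called. There 3 and 1 of the 33 had an unadjusted p under 0.05, beside 3.59% and 2.87%. The shares of all tested genes that were called are given above. Between inputs 0 were called of 46, 43 and 44 tested at 10, 1 and 0.5 ng against 50 ng. At an unadjusted p under 0.05 there were 1, 4 and 4, beside 4.15%, 11.9% and 13.8% of all tested genes. Between genotypes their median log2 fold change was -0.01 at 50 ng and 0.02 at 10 ng. Among the 13 tested of 14 membrane, junction and adhesion genes the values at 50 ng ran from -0.32 for S1pr5, a sphingosine phosphate receptor, to 0.89 for Gjc3, a connexin. Among the 9 genes of lipid and metabolic enzymes they ran from -0.36 for Gamt, which makes creatine, to 0.81 for Fa2h, the fatty acid hydroxylase of myelin lipids, with a median of -0.25. The 10 cytoskeletal and signalling genes lay between -0.28 for Sept4 and 0.17 for Anln, both of the septin scaffold of myelin. The 6 secreted proteins and proteases lay between -0.17 for Cryab and 0.47 for Adamts4, and the 6 tested of 7 transcription factors between -0.25 for Nkx6-2 and 0.24 for Olig2. Gjc3, Fa2h and Adamts4 all had their highest value in GFAP-IL6 replicate 4 at 50 ng, with 24.6, 17.2 and 13.1 CPM. None of the values in these lists passed the test. Over the 35 of these genes that had a mean of at least 10 CPM, the median r to the mean of the 9 was 0.69, beside 0.13 over all 8726 genes, and it was 0.64 beside 0.15 without GFAP-IL6 replicate 4. At 1 and 0.5 ng it was 0.25 beside 0.08.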

How the data were processed

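The authors demultiplexed the reads with bcl2fastq, trimmed poly(A), aligned to mm10 with STAR 2.4 and assigned them to GENCODE features with featureCounts. Values as deposited are raw counts, whole numbers that the authors did not normalize. Use of strand in counting is not given in the sources used here. CPM was the count over the library total. A count of 0 allows up to 3 counts, which is 0.305 to 11.5 CPM over the libraries and covers counting error only, since no molecular identifiers are described.

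Groups came from the genotype and input in the labels. Fits across all genes used edgeR 4.0.16 (R 4.3.3, TMM, filterByExpr, quasi-likelihood test, Benjamini-Hochberg adjustment), per input for genotype and with both inputs in the fit for input and interaction effects. DESeq2 1.42.0, other size factors, no filter, the replicate number as a block, thinning to the lowest total, a single fit and leaving out each replicate were alternatives. The script was tested on simulated data. Nothing in the labels says that replicates are separate animals, so p-values measure the spread between these libraries. No 2 libraries of a group agreed within counting noise (48 pairs, smallest chi-square per degree of freedom 2.37). Python 3.11.15, pandas 2.3.3, numpy 2.4.6 and matplotlib 3.10.9 did the rest.

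The 9 genes and all lists were chosen with earlier results of these data known. Named genes were the 9, the lowest and highest log2 fold changes of each list at 50 ng, and the 10 most and 5 least alike genes with a mean of at least 10 CPM. Others are marked where they appear, and some named by the rule are not reported here. Positions are from a later GENCODE release and promoters from RefSeq.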

Additional observations from a re-analysis of the deposited data

Results flagged for a closer look

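A single library lay far from the other 3 of its group, by Dixon's criterion for 4 samples, in 4 of the 80 group and gene combinations examined (the 9 genes and their sum in 8 groups), and chance alone gives about 1 in 20. Mag measured 54.0 CPM in GFAP-IL6 replicate 3 at 50 ng, with 33.6 to 36.6 CPM in the others. Cnp measured 367 CPM in WT replicate 3 at 1 ng, with 177 to 206 CPM in the others. Opalin measured 75.3 CPM in WT replicate 1 at 1 ng, with 30.02 to 37.2 CPM in the others. Mal measured 410 CPM in GFAP-IL6 replicate 2 at 0.5 ng, with 306 to 316 CPM in the others, from a library of 295022 counts. The Mag and Cnp values were in libraries numbered 3, whose summed level of the 9 genes led its group at that input.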

How the results depend on the processing

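The number of the 9 genes called stayed at 0 in all 10 comparisons (4 of genotype, 3 of input, 3 of their interaction) under all 140 alternatives, including each left-out replicate and the replicate number as a block. By a chosen limit of r over 0.1, same-numbered libraries did not all deviate together (2 of 4 pairs of WT and GFAP-IL6 at 50 ng, and 3 of 4 pairs of GFAP-IL6 at 50 and 10 ng). The labels give no pairing either, so the number was not treated as a pairing in the main fits. Between inputs of a genotype, however, every same-numbered r was positive, from 0.02 to 0.49, so this limit cannot exclude a pairing. As a hint from the data and not the design, libraries often correlated best with their own number. This held in 4 of 4 pairs of WT and GFAP-IL6 at 50 ng and at 10 ng. It also held in 4 of 4 of WT at 50 ng with 10, 1 and 0.5 ng, and of GFAP-IL6 at 50 and 1 ng. The count was 3 of 4 for GFAP-IL6 at 50 ng with 10 and 0.5 ng. Between WT and GFAP-IL6 it was 3 of 4 at 1 ng and 2 of 4 at 0.5 ng. With the block the called members remained 0, though Mal at 10 ng against 50 ng, 0.27 with SE 0.06, reached an adjusted p of 0.0170 by edgeR below the fold limit. Without the block the SE of Mal was 0.12 and its adjusted p 0.9999 by edgeR. In all, 3 of 882 alternative log2 fold changes of the 9 genes had an adjusted p under 0.05, each of them Mal between inputs, and 20 moved by more than their SE, 6 of these without GFAP-IL6 replicate 4. Dividing by totals without mitochondrial genes raised the mean sum in WT to 5940 CPM at 1 ng and 5243 CPM at 0.5 ng, since the totals shrink. The log2 ratio of summed levels, GFAP-IL6 against WT, was -0.21 at 50 ng and ran from -0.42 without GFAP-IL6 replicate 3 to 0.01 without GFAP-IL6 replicate 4. At 1 ng it was -0.11, while the mean of log2(CPM + 1) differed by 0.11 in the other direction. The mean r between the 9 genes ranged from 0.49 to 0.78 at 50 ng when a library was left out. Counts of calls over all genes varied more. Genotype calls at 50 ng were 33, against 80 with no filter, 19 when thinned, 3 in a single fit and 11 to 59 with a library left out, the highest without GFAP-IL6 replicate 4. At 0.5 ng they were 1, against 21 by DESeq2 and 616 in the single fit. For 0.5 ng against 50 ng they were 171, against 595 by DESeq2, 868 with no filter and 75 with the block. At 1 and 0.5 ng single genes had as few as 6 counts, and the part of depth in the wider intervals there was not tested.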
